A study of Mus musculus with 50 samples.

Results

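The genes described here are 9 heat shock genes: Hspa1a, Hspa1b, Hsph1 and Dnajb1, whose transcription rises sharply on heat or other protein damage, and Hspb1, Hspa8, Hspa5, Hsp90aa1 and Hsp90ab1, which are made in unstressed cells as well. The latter are called constitutive below, which does not mean that heat or damage leaves them unchanged. All 9 genes were chosen by name, and every probe set that the array's annotation pairs with exactly 1 of them was taken. This gave 22 probe sets for 8 of the 9 genes, of 45037 probe sets on the array without its controls; Hsp90ab1 was not analysed here. Tests were limited to probe sets that exceeded a log2 level of 4 on 2 or more of the arrays, 20 of the 22 members and 22205 overall. The 2 that were left out were both annotated to Hsp90aa1 and lay below 4 in all 50 arrays.

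The tissue was the dorsal root ganglion, which holds the cell bodies of sensory neurons with their satellite glia. It came from 25 inbred mouse strains, and each strain gave 1 Affymetrix expression array of male and 1 of female RNA, 50 arrays in all. Per the labels, all mice were wildtype, 2 months old and naive, the ganglia were dissected in the morning, and each array carried RNA pooled from 3 mice. The groups are thus AKR/J, BALB/CByJ, SM/J, BTBT T+tf/J, NZW/LacJ, CBA/J, PL/J, C58/J, RIIIS/J, NZO/HILtJ, DBA/2J, C3H/HeJ, BUB/BnJ, NOD/LtJ, C57BR/cdJ, NON/LtJ, KK/HIJ, FVB/NJ, P/J, A/J, 129S1/Sv1mJ, MRL/MpJ, SJL/J, SWR/J and c57BL/6J, spelled as in the labels. No group was heated, injured or treated, so there is no induced sample to set the levels against. The male and the female pool are the only replicates of a strain, and p-values for strain measure the spread between these pools. The series title names the nicotinic alpha6 subunit and P2X2/3 receptors in variable pain sensitivity. All levels below are log2(intensity + 1), and a difference of 1 is a change by a factor of 2 in intensity + 1.

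Heat shock proteins are chaperones that hold, fold or hand on other proteins. The Hsp70 proteins Hspa1a and Hspa1b are nearly identical and strongly inducible; Hspa8 is their constitutive relative in the cytosol and Hspa5 (BiP) the one of the endoplasmic reticulum. J-domain proteins such as Dnajb1 stimulate the ATPase of Hsp70, and Hsph1, of the Hsp110 family, is its nucleotide exchange factor. Hsp90aa1 is a cytosolic Hsp90, and Hspb1 (Hsp25 in the mouse) a small heat shock protein that sensory neurons hold at high levels and raise further after nerve injury. In stressed cells the inducible genes are switched on together by the factor HSF1, which binds heat shock elements, inverted repeats of GAA and TTC units. Hspa5 answers instead to unfolded protein in the endoplasmic reticulum through its own promoter element.

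The promoters of members that moved together below are shown with that of Hspa5 for comparison, as the 250 bases before the RefSeq start site in GRCm38.p6, 5′ to 3′ on the gene's strand, with motif matches in capitals. Hspa1a lies at chr17:34972157-34972406 (minus strand), Hspa1b at chr17:34959239-34959488 (minus), Dnajb1 at chr8:83607925-83608174 (plus) and Hspa5 at chr2:34771840-34772089 (plus). Capitals mark a pair of heat shock units in Hspa1a and Hspa1b and the endoplasmic reticulum stress element in Hspa5.
Hspa1a: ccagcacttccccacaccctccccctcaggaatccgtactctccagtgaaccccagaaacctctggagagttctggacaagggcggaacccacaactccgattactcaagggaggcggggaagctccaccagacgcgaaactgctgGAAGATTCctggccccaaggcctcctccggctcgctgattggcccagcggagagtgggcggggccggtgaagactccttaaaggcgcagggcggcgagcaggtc
Hspa1b: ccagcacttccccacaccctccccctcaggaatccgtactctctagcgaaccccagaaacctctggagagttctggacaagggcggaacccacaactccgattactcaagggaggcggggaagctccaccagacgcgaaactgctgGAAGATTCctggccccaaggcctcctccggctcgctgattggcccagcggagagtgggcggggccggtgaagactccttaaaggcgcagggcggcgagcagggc
Dnajb1: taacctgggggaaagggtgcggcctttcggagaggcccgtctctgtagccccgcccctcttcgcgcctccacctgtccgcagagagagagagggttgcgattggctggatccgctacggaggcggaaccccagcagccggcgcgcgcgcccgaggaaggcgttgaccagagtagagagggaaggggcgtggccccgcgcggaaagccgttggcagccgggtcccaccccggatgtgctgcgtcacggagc
Hspa5: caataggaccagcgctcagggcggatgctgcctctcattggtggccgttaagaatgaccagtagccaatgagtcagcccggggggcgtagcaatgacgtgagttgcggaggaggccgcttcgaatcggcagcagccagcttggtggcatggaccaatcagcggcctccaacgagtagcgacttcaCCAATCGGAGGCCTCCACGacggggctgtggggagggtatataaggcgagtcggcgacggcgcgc

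The Hspa1a and Hspa1b windows were identical at 247 of 250 bases (98.8%), and both held GAAGATTC at positions -104 to -97 before the start. The motif searched was GAANNTTC or TTCNNGAA, each its own reverse complement and therefore read on both strands at once, and 12.8% of all 32851 promoter windows of the same length held it. Hsph1 had TTCTCGAA at -33 to -26, and Hspb1 had GAAGTTTC at -117 to -110 and GAACCTTC at -97 to -90. The Dnajb1 window held none of these letters. The longer form with 1 further unit at the same spacing, which contains the shorter one, was in 0.466% of windows and in none of the 6 members with an entry. Hspa5 carried the endoplasmic reticulum stress element, CCAAT and CCACG with 9 bases between them on either strand, at -65 to -47, as did 0.113% of all windows. A match describes the letters only. Hspa8, Hsp90aa1 and Hsp90ab1 had no entry in the promoter table.

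Arrays had medians of 9.42 to 10.52 in linear intensity. The defining markers of sensory neurons were high in every array (mean of 9 genes 11.62 to 12.07). The array labelled male PL/J (Xist 8.97, Eif2s3y 6.52) and that labelled female SM/J (9.43 and 6.82) carried transcripts of both sexes. Without these strains the same 5 member probe sets were called for strain, and as many as in all 25 strains were called for a single strain (4) and for sex (12). Results that changed are given below. The lowest intensity was 1.629 to 1.655 in the male and 1.726 to 1.744 in the female arrays. These ranges do not overlap, no label records how the sexes were normalized, and sex and normalization cannot be told apart.

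Hspa1b, an inducible Hsp70 (leading probe set 1452318_a_at, the one with the highest mean), ran from 8.09 in the female KK/HIJ array to 10.53 in the male NZW/LacJ array, with a median of 9.09. By the mean of both pools NON/LtJ was highest at 10.31 ± 0.15 (SD, n = 2) and KK/HIJ lowest at 8.27 ± 0.25, a 4.11-fold range. In bulk tissue, fewer cells of a type and less RNA per cell cannot be told apart. Both NON/LtJ pools were high, at 10.20 in males and 10.42 in females, as were both BUB/BnJ pools with a mean of 9.92 ± 0.12 (SD, n = 2). In other strains the pools lay far apart. NZW/LacJ had 10.53 in males and 9.28 in females, NZO/HILtJ 10.28 and 9.24, NOD/LtJ 8.94 and 10.47, MRL/MpJ 8.32 and 9.42, and FVB/NJ 8.93 and 9.89. At the low end C57BR/cdJ had 8.20 in males and 8.80 in females, and KK/HIJ 8.44 and 8.09. Strain differences were called (limma F test with sex as a term, adjusted p = 0.0123), as for 24.7% of all probe sets tested. The other Hspa1b probe sets, 1427127_x_at and 1427126_at, had ranges of 2.07 (adjusted p = 0.014) and 2.54 (adjusted p = 0.0447), also from NON/LtJ down to KK/HIJ, and their strain means followed the first at r = 0.97 and 0.95 over 25 strains.

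Hspa1a (1452388_at) ran from 4.38 in the male NOD/LtJ array to 7.39 in the female NON/LtJ array with a median of 5.32. NON/LtJ again had the highest mean, 7.22 ± 0.24 (SD, n = 2), and was first in both sexes; DBA/2J had the lowest, 4.50 ± 0.02. AKR/J followed with 6.86 in males and 5.89 in females, and SJL/J with 5.54 and 6.60. NOD/LtJ was the lowest male array at 4.38 and a high female array at 6.44, the same direction as for Hspa1b. The range of strain means was 2.72, or 6.57-fold (limma F test, adjusted p = 0.0345). This call rested on NON/LtJ: without both of its arrays the range was 1.87 and the adjusted p 0.344. It was also lost without the female SJL/J, KK/HIJ or DBA/2J array or either C57BR/cdJ array (adjusted p 0.052 to 0.0645). Since Hspa1a and Hspa1b are nearly identical, their probe sets may bind both transcripts, and the split between these genes is uncertain.

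**Figure D1:**
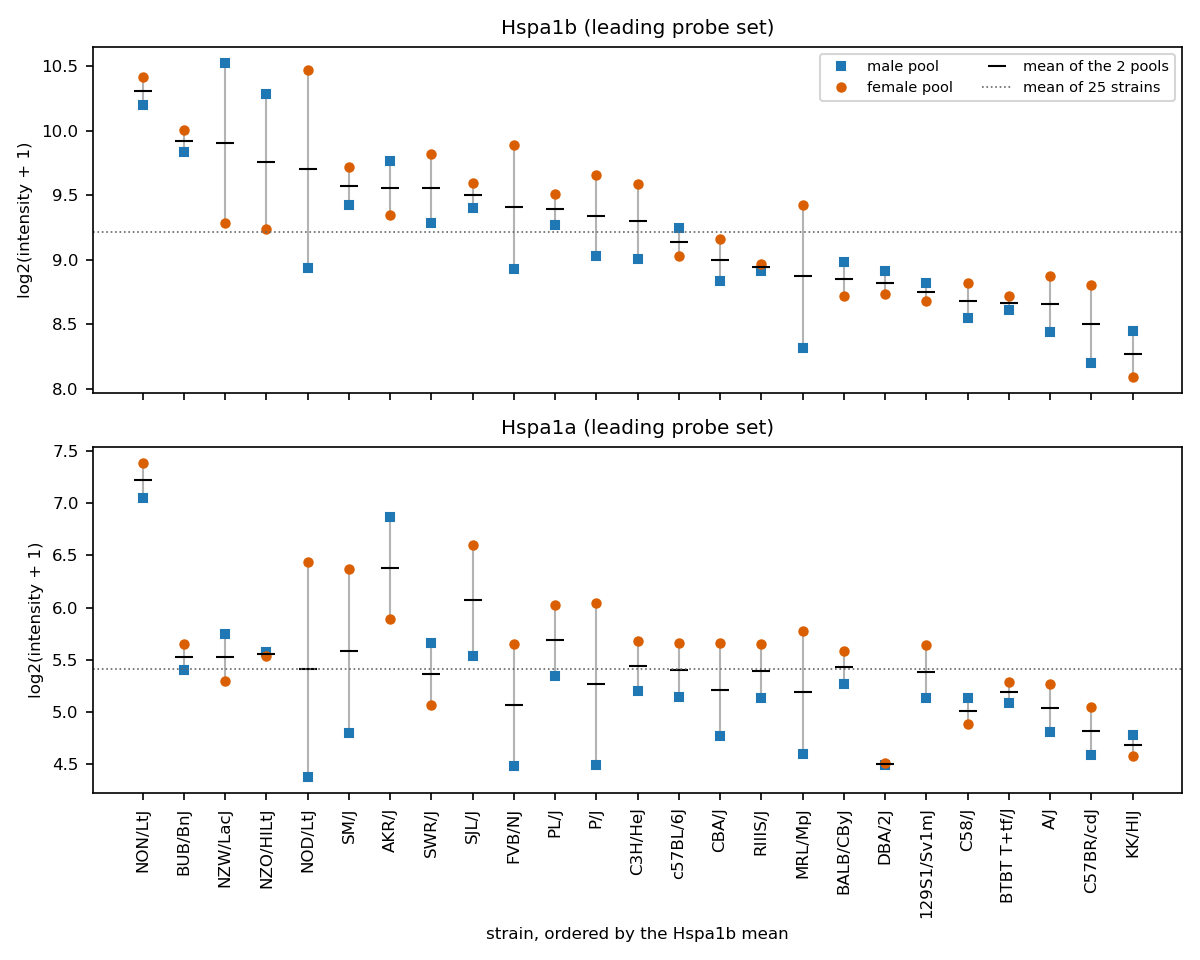
Level of Hspa1b (top) and Hspa1a (bottom) as log2(intensity + 1) in the male pool (square) and female pool (circle) of 25 strains, ordered by the Hspa1b mean; short bars are the means of the 2 pools and the dotted line is the mean of all strains. Both NON/LtJ pools lie high in both panels (Hspa1a 7.05 and 7.39), while the pools of NZW/LacJ, NZO/HILtJ and NOD/LtJ lie far apart for Hspa1b.

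NON/LtJ was the only strain with a member call when each strain was set against the mean of the other 24. It exceeded them by 1.88 for Hspa1a (SE 0.34, 3.68-fold, limma adjusted p = 0.000878 over all probe sets and strains) and by 1.14 for the leading Hspa1b probe set (SE 0.29, 2.20-fold, adjusted p = 0.024). The other Hspa1b probe sets were higher by 1.25 (adjusted p = 0.0267) and 1.38 (adjusted p = 0.045). These 4 calls concern a pair of nearly identical genes. Over all probe sets, 107 of 22205 (0.482%) were called higher in NON/LtJ, and over all strains 1.14% of comparisons were called. With either NON/LtJ array left out, its lone pool was assumed to vary like those of the other strains. The Hspa1a call then held (adjusted p at most 0.0374), and the Hspa1b call was lost (0.158 and 0.183) at differences of 1.16 and 1.12. KK/HIJ lay 0.99 below the other strains for Hspa1b and was not called (adjusted p = 0.06). In the order of strain means NON/LtJ ranked 3 of 25 for Dnajb1, 9 for Hsph1, 18 for Hspb1, 9 for Hspa8, 6 for Hspa5 and 5 for Hsp90aa1. Fibroblast markers had a mean of 9.74 in its male and 10.50 in its female array, of 8.72 to 10.61 over all arrays, and skeletal muscle markers 5.15 and 6.15, of 3.87 to 9.20. Satellite glia markers were at 11.07 and 11.37 (10.61 to 11.41 over all arrays) and macrophage markers at 5.36 and 6.16 (4.76 to 6.64). The female array had the highest red cell mean of the 50 (4.29, from 2.80), and the male array an adipocyte mean of 4.30 (2.63 to 4.39). The 3′ minus 5′ signal of the Gapdh control, a measure of RNA integrity, was -0.59 and -0.67 there, of -0.73 to 0.60. The part of these in the NON/LtJ values was not tested.

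Hsph1 and Dnajb1, the co-chaperones of inducible Hsp70, had narrower ranges. Hsph1 (1425993_a_at) ran from 10.09 to 11.14 over the 50 arrays with a median of 10.65, and its strain means ranged by 0.61 from BTBT T+tf/J at 11.00 to C3H/HeJ at 10.40 (limma F test, adjusted p = 0.186). Dnajb1 (1416755_at) ran from 8.39 to 9.59 with a median of 8.98. Its strain means ranged by 0.85 from RIIIS/J at 9.47 to C57BR/cdJ at 8.62 (adjusted p = 0.233). Neither gene passed the test. The median range of all probe sets tested was 0.87. Without either P/J array Hsph1 was called (adjusted p = 0.0306 and 0.0272). The strain means of the leading and the second probe set correlated at 0.29 for Hsph1 and 0.60 for Dnajb1 over 25 strains. On the second Hsph1 probe set, 1423566_a_at, BTBT T+tf/J ranked only 23 of 25, at 9.22 in males and 10.15 in females. C3H/HeJ, lowest on the leading one, ranked 22 there. In the male BTBT T+tf/J array the 3′ signal of Gapdh exceeded the 5′ signal by 0.60, more than in any other array. The part of RNA integrity in this reversal was not tested.

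Among the constitutive members, Hspb1 (1422943_a_at) ran from 10.04 to 11.49 with a median of 10.81. SJL/J had the highest mean at 11.28 and KK/HIJ the lowest at 10.47, a range of 0.82 (limma F test, adjusted p = 0.1). Its second probe set followed at r = 0.98 over strain means. Hspb1 was called without either NZO/HILtJ array (adjusted p = 0.0165 and 0.0181), without the male MRL/MpJ array (0.0373) and without either P/J array (0.0445 and 0.0427). Hspa5 (1416064_a_at) ran from 10.55 to 11.99 with a median of 11.29, and its means ranged by 0.73 from AKR/J at 11.66 to P/J at 10.93 (adjusted p = 0.24). Its second probe set correlated with the first at 0.97 over the female arrays and at 0.03 over the male arrays.

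By leading probe set, Hspa8 and Hsp90aa1 had the narrowest ranges of the members. Hspa8 (1455789_x_at) ran from 13.84 to 14.42 with a median of 14.07, and its strain means spanned 0.34 between NZO/HILtJ and NOD/LtJ (limma F test, adjusted p = 0.583). Hsp90aa1 (1438902_a_at) ran from 13.21 to 13.72 with a median of 13.52, and its strain means spanned 0.28 between KK/HIJ and P/J (adjusted p = 0.547). A further Hspa8 probe set, 1420622_a_at, had a range of 0.57 and was called (adjusted p = 0.0136), from RIIIS/J at 13.62 to NOD/LtJ at 13.05. NOD/LtJ was lowest in both sexes on this probe set, at 13.14 in males and 12.95 in females. It was also lowest in both sexes on the leading one, at 13.84 and 13.90. RIIIS/J was highest among males and second among females, at 13.72 and 13.52. The Hspa8 probe set 1431182_at had a wide range, 1.27 from SJL/J to C3H/HeJ, and was not called (adjusted p = 0.521, within-strain SD 0.53).

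**Figure D2:**
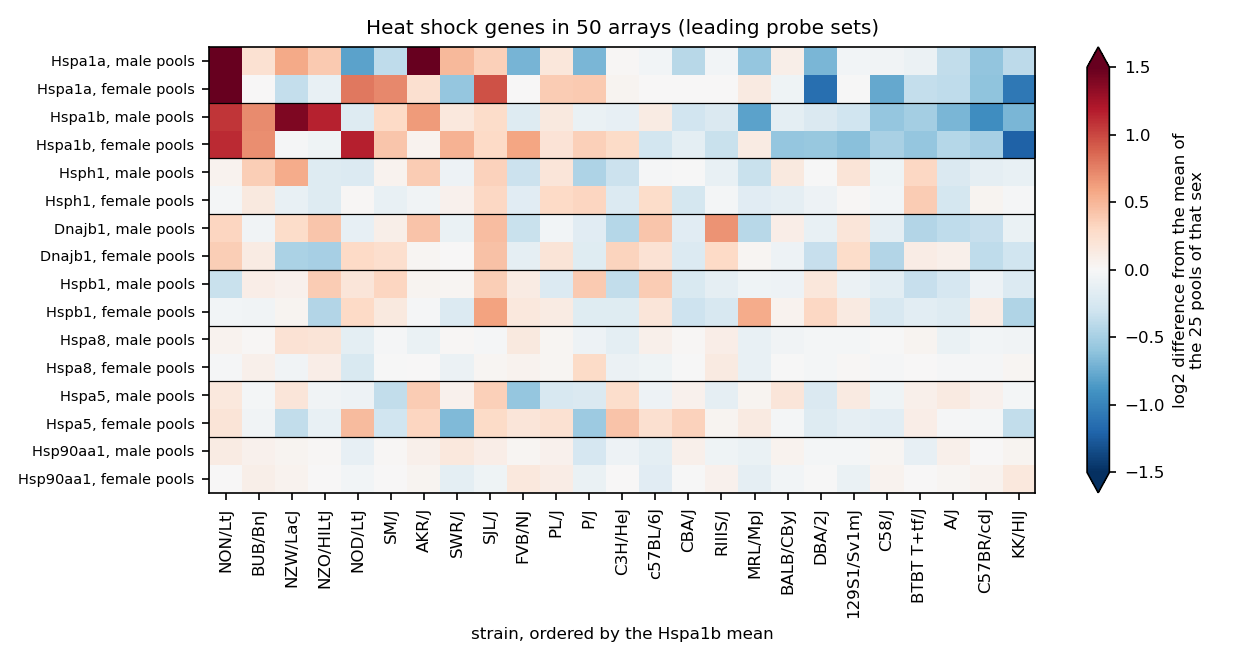
Level of the 8 members in 50 arrays (leading probe sets), as the log2 difference from the mean of the 25 pools of the same sex, with strains in the order of the Hspa1b mean and a row for each sex. Strong colours are nearly limited to the Hspa1a and Hspa1b rows, with both NON/LtJ pools high, while the Hspa8 and Hsp90aa1 rows, whose strain means span 0.34 and 0.28, stay pale.

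In all, 5 of 20 member probe sets were called for strain: that of Hspa1a, the 3 of Hspa1b and 1 of 4 of Hspa8. This count is near the background of 24.7% of all probe sets. By leading probe set it was 2 of 8 genes against 26.1% of 11204 genes. Without both NON/LtJ arrays 3 member probe sets were called, and without the sex term 2.

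How much of a member's variation the arrays of a strain shared was described by the intraclass correlation of male and female values over 25 strains, after the mean of each sex was removed. It was 0.48 for Hspa1b, 0.40 for Hspa1a, 0.28 for Hsph1 and 0.20 for Dnajb1. For the constitutive members it was 0.35 for Hspb1, 0.30 for Hspa8, 0.21 for Hspa5 and 0.36 for Hsp90aa1. The median over all 22205 probe sets was 0.23 and the 90th percentile 0.61, and all 8 leading probe sets lay below the latter. The highest member value was 0.71, on the called Hspa8 probe set. Pearson's r of male and female Hspa1a values was 0.40 and Spearman's rho 0.14, and without NON/LtJ they were 0.10 and 0.02 over 24 strains. Hspa1b had 0.39 and 0.56 without that strain. For Hspb1 and Hspa1b rho was 0.43 and 0.58, above r at 0.35 and 0.48. By leading probe set, the pools of a strain differed most for the Hsp70 genes, with a within-strain SD of 0.50 for Hspa1a and 0.43 for Hspa1b against a median of 0.23 over all probe sets, and least for Hsp90aa1 and Hspa8 at 0.07 and 0.08.

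**Figure D3:**
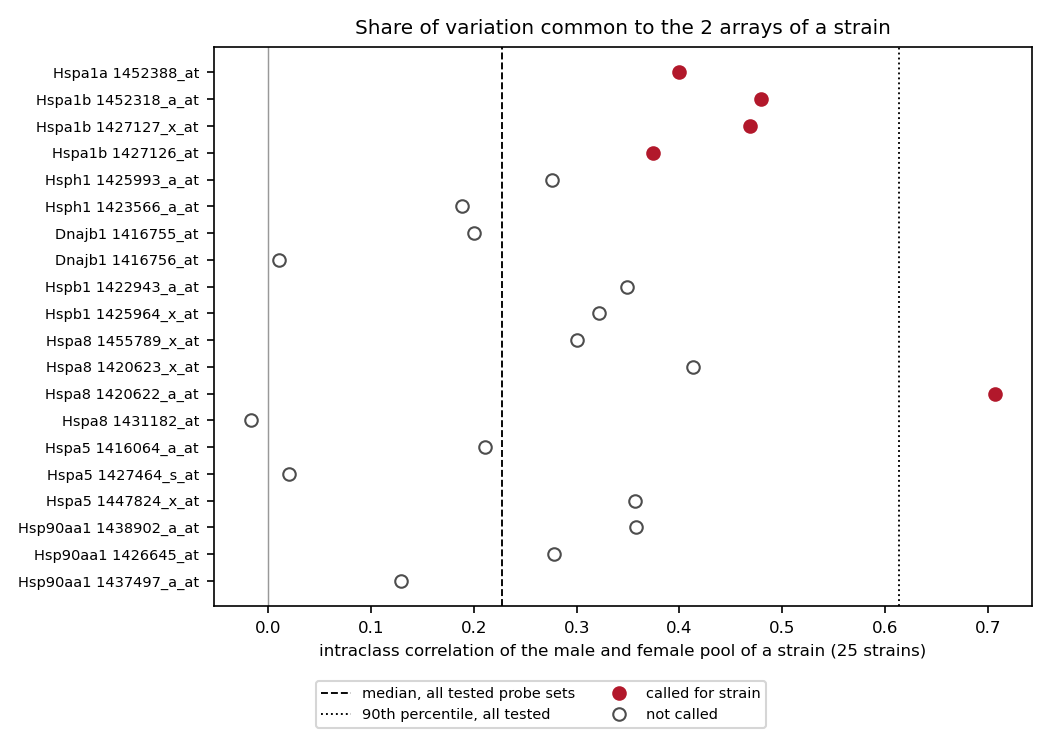
Intraclass correlation of the male and female pool of a strain over 25 strains for the 20 tested member probe sets; filled points were called for strain, and the vertical lines are the median (0.23) and the 90th percentile (0.61) of all tested probe sets. The leading Hspa1b probe set lies at 0.48, and of the members only 1 Hspa8 probe set, at 0.71, lies beyond the 90th percentile.

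The median correlation was higher among pairs of inducible members than among pairs of constitutive ones. Over the 25 strain means, the 6 pairs among Hspa1a, Hspa1b, Hsph1 and Dnajb1 had a median r of 0.42 (0.21 to 0.73). The 16 pairs of an inducible with a constitutive member had 0.15 (-0.09 to 0.45), and the 6 constitutive pairs -0.06 (-0.44 to 0.20). The male minus female differences within strains leave out what both pools of a strain share. A sex difference particular to a strain stays in them and cannot be told apart from variation between pools. Over these 25 differences the medians were 0.53 (0.34 to 0.76), 0.25 (-0.17 to 0.56) and 0.08 (-0.14 to 0.42). The classes overlap there: Hspa5 with Hsp90aa1 had 0.42, and Hsph1 with Dnajb1 0.34. With other probe sets of its gene, the leading one had r over differences of 0.50, -0.08 and 0.20 for Hspa8. It had 0.51 and -0.31 for Hsp90aa1, 0.64 and 0.16 for Hspa5, and 0.96 for Hspb1. Among the inducible genes this r was 0.85 and 0.91 for Hspa1b, 0.22 for Hsph1 and 0.56 for Dnajb1. How far this lowers r between genes was not tested. Without the pair of Hspa1a and Hspa1b, which may share probes, the inducible medians were 0.40 and 0.49. All these values come from the same 50 arrays and share whatever made 1 pool differ from another, and they are given without a test.

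The closest pair of distinct genes was Hspa1b and Dnajb1 within strains, with r = 0.76 and rho = 0.69 over 25 differences. With the mean difference of all strains subtracted, NZW/LacJ males exceeded females by 1.42 for Hspa1b and 0.75 for Dnajb1, and NZO/HILtJ males by 1.22 and 0.91. NOD/LtJ went the other way at -1.36 and -0.41, and so did MRL/MpJ at -0.93 and -0.45. The sign was the same in 17 of 25 strains, and r was 0.71 without NZW/LacJ and NOD/LtJ. Without SM/J and PL/J the inducible medians of r were 0.41 over strain means and 0.57 over differences. Between strains the closest such pair was Hspa1a and Dnajb1 (r = 0.69), against 0.43 for Hspa1b and Dnajb1. Hspa5 had r = 0.45 with Hspa1a over strain means and 0.56 over differences, and -0.44 and -0.13 with Hspa8, its constitutive relative. Hspb1 and Dnajb1 had 0.27 between strains and 0.56 within them.

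**Figure D4:**
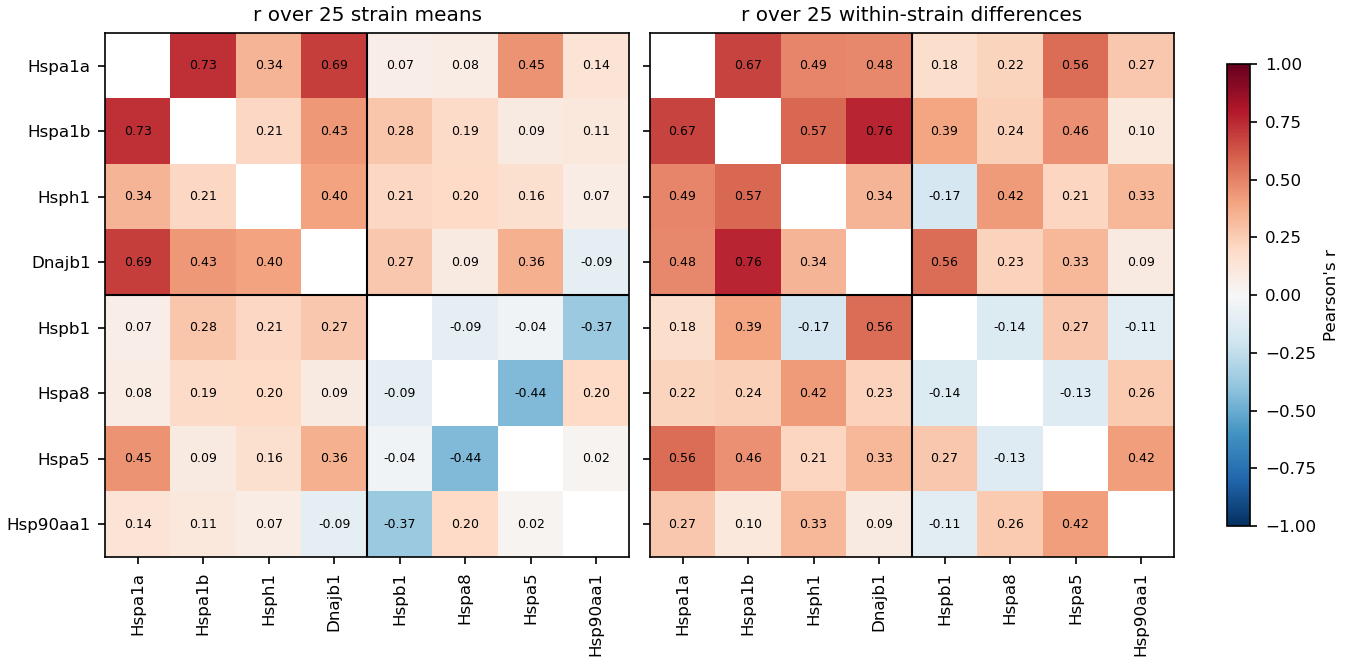
Pearson's r between the leading probe sets of the 8 members over 25 strain means (left) and over 25 male minus female differences within strains (right); black lines part the 4 inducible members (top left block) from the 4 constitutive ones. The inducible block has medians of 0.42 and 0.53, and the constitutive block -0.06 and 0.08.

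A fit of every probe set on Hspa1b within strains (strain and sex as further terms, Hspa1a and Hspa1b left out of the search) asked which other transcripts rose in the pool that had more Hspa1b. Of 22201 probe sets, 1 was called (0.0045%), and 6.85% had an unadjusted p under 0.05. The 1 call was Serpinh1, which encodes Hsp47, the collagen chaperone of the endoplasmic reticulum and a known target of HSF1. It rose by 0.67 for each unit of Hspa1b (SE 0.11, limma adjusted p = 0.0351), with the same sign in 17 of 25 strains. Genes that were not called reached such counts as well, among them Fos with 17 and Kcnj10 with 18. Dnajb1 had a slope of 0.49 (SE 0.09, adjusted p = 0.0787) and was not called. It was called with log2(value + 16) (adjusted p = 0.0489), with quantile normalization (0.0491), with the Gapdh 3′ to 5′ signal as a covariate (0.0195) and without BTBT T+tf/J (0.0221). Its second probe set, 1416756_at, had a slope of 0.31 (SE 0.16, adjusted p = 0.737). Hsph1 had 0.26 (adjusted p = 0.634) and Hspa5 0.25 (adjusted p = 0.694). With Dnajb1 in place of Hspa1b as the reference gene, 2 of 22203 probe sets were called, and both were of Hspa1b (slopes 1.595 and 1.198, both adjusted p = 0.0339). This is the same pair of genes over the same differences, read the other way, and not an independent result. Between strains 0 of 22201 probe sets (0%) were called for Hspa1b by limma, with 4.05% at an unadjusted p under 0.05.

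Serpinh1 ran from 7.75 to 9.58 over the 50 arrays with a median of 8.52. It correlated with Hspa1b at 0.69 over the 25 male and at 0.67 over the 25 female arrays, and at 0.78 over the differences (0.66 without NZW/LacJ and NOD/LtJ). NZW/LacJ had 9.23 in males and 8.28 in females, NZO/HILtJ 8.83 and 7.77, NOD/LtJ 8.51 and 9.58, and FVB/NJ 7.92 and 9.27. The pool with more Hspa1b was the one with more Serpinh1 in these 4 strains. NON/LtJ had the highest Serpinh1 mean, 9.31. Its promoter window held no pair of heat shock units. The second Serpinh1 probe set had a slope of 0.62, with the same sign in 14 of 25 strains, and was not called for this relation (limma adjusted p = 0.222). The slope stayed between 0.60 and 0.72 when any strain was left out, but the call was lost without any 1 of 13 strains (NZO/HILtJ, NZW/LacJ, NOD/LtJ, FVB/NJ, CBA/J, PL/J, C58/J, RIIIS/J, DBA/2J, C3H/HeJ, C57BR/cdJ, P/J and SWR/J), with an adjusted p of up to 0.613 without NZO/HILtJ. Without both SM/J and PL/J it was 0.074. Fibroblast markers ran with Hspa1b at r = 0.30 over 50 arrays and all 5 had positive slopes, none called. Skeletal muscle markers gave r = 0.25 and 5 of 5 positive slopes, none called. Over the 12 marker lists r ran from -0.16 (liver) to 0.34 (satellite glia). Satellite glia markers, which had the highest r, had 2 of 4 positive slopes within strains, none called. Schwann cell markers had r = 0.23, sensory neuron markers -0.09 and the Gapdh signal -0.04. With the fibroblast or muscle marker mean as a covariate the Serpinh1 slope was 0.65 and the adjusted p 0.0777 and 0.186.

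**Figure D5:**
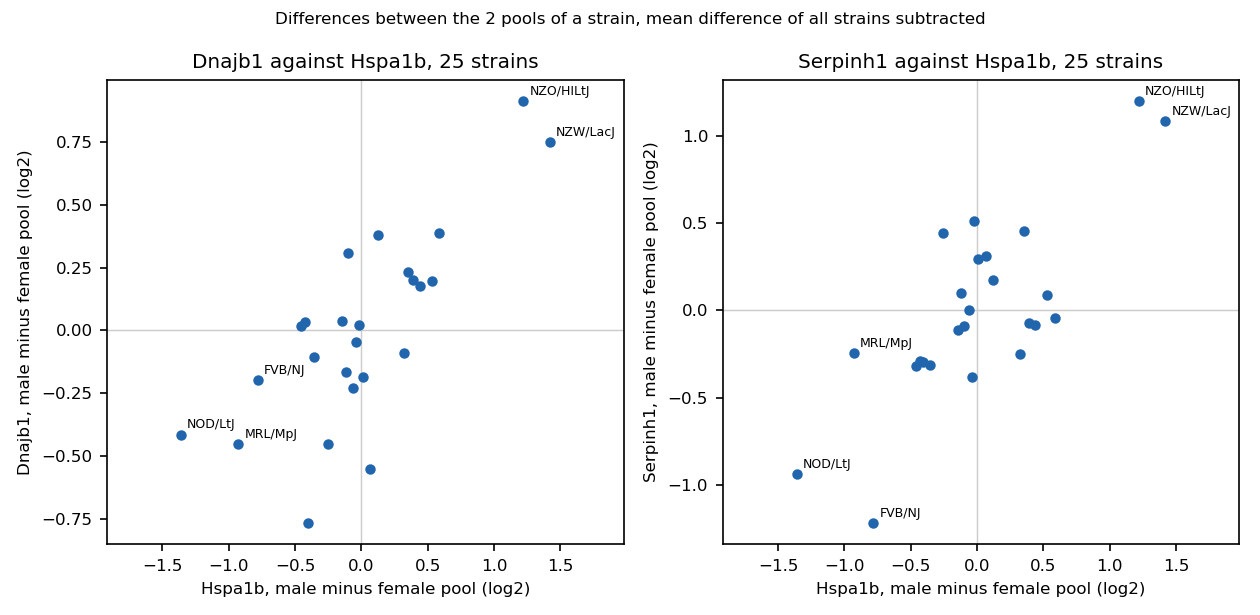
Male minus female difference of Dnajb1 (left) and Serpinh1 (right) against that of Hspa1b in 25 strains, as log2 values with the mean difference of all strains subtracted. The points of NZW/LacJ and NZO/HILtJ (Hspa1b 1.42 and 1.22) lie at the upper right and NOD/LtJ (-1.36) at the lower left of both panels.

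By likeness over all 50 arrays, with the mean of each sex removed and 11196 genes compared, the genes closest to the mean of the 4 inducible members were P4ha2 (r = 0.61), Serpinh1 (0.61), Creld2 (0.58), Stk10 (0.51), Fosl2, Morc4, Swt1, Hsp90b1 and Pde1a (each 0.48) and Zfp937 (0.47). P4ha2 encodes a collagen prolyl hydroxylase subunit, and Hsp90b1 the Hsp90 of the endoplasmic reticulum. Closest to Hspb1 were Nucb1 (0.72), Fkbp4 (0.69), a co-chaperone of Hsp90, and Slc48a1 (0.69). Closest to Hspa8 were Gatad2b (0.65), Slc12a7 (0.64) and Bcl7a (0.62), and closest to Hsp90aa1 were Eif4a2 (0.64), the J-domain protein Dnaja1 (0.64) and Krit1 (0.63). Hspa5 had the closest single match, Manf at 0.77, a secreted protein made under stress of the endoplasmic reticulum, then Zfp37 (0.69) and Ormdl1 (0.68). Its r with Manf was 0.49 over the male and 0.90 over the female arrays.

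Other genes of the heat shock network were read from lists. Of 21 tested HSF1 target genes outside the members, 5 were called for strain (23.8%, against 26.1% of all genes), 1 was called for the relation to Hspa1b (Serpinh1), and the median slope was 0.03. The called genes with the widest ranges were the haem oxygenase Hmox1, highest in MRL/MpJ at 6.10 and lowest in KK/HIJ at 4.31 (limma adjusted p = 0.00968), and Zfand2a, with 9.17 in NZW/LacJ and 7.56 in P/J (adjusted p = 0.0434). Hspa4, of the Hsp110 family, ran from 10.59 in BUB/BnJ to 9.64 in KK/HIJ, and the mitochondrial co-chaperonin Hspe1 from 11.00 in SJL/J to 10.26 in FVB/NJ. Neither of the 2 tested heat shock factor genes and regulators, Hsf4 and Hsbp1, was called. Hsf4 lay near the filter level of 4 (median 3.20, highest array 4.04), so its lack of a call says little. Hsf1 and Hsf2 were not tested.

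The shares called in the next lists are to be read against the 26.1% of all genes. Among 8 other Hsp70 and Hsp110 genes 2 were called (25%), Hspa4 and Hyou1, the latter from 9.02 in SWR/J to 7.57 in AKR/J (limma adjusted p = 0.00629). AKR/J had the highest Hspa5 mean. Of 20 Hsp90 genes and co-chaperones 3 were called (15%): Bag2 (range 1.11), Unc45a (1.10) and Ahsa1 (0.46). Of 18 J-domain genes 5 were called (27.8%). The widest range was that of Dnajc10, a disulfide reductase of the endoplasmic reticulum, from 8.75 in SJL/J to 6.46 in A/J (adjusted p = 6.88e-08), followed by Dnajb14 (1.30), Dnajc3 (1.10) and Dnaja4 (1.03). Of 4 small heat shock protein genes Hspb2 was called (0.61), and of 10 chaperonin genes Hspe1.

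The lists of neighbouring stress pathways were set beside Hspa1b within strains. Of 21 endoplasmic reticulum genes 2 were called for strain, Hyou1 and Dnajc3, and none for the relation to Hspa1b. Their slopes had a median of 0.17, 20 of 21 were positive, and 9 had an unadjusted p under 0.05. Over all genes the median slope was -0.03, 38.5% were positive and 7% had such a p. Of the 21 HSF1 target genes 14 slopes were positive and 4 had such a p. For 18 J-domain genes these counts were 7 and 4, and for 10 chaperonin genes 2 and 1. The counts of p take slopes of either sign. Negative slopes with such a p were those of the HSF1 target Mrpl18 (-0.26) and the chaperonin gene Cct8 (-0.15). Among J-domain genes they were those of Dnajc10 and Dnajc8 (both -0.23), while Dnajb11 (0.19) and Dnajb12 (0.21) were positive. The other HSF1 targets with such a p, Serpinh1, P4ha1 and Ahsa2, had positive slopes. Signs within a list are not independent of each other, and no list was tested as a set. The steepest endoplasmic reticulum genes were Creld2 at 0.62 (SE 0.16, limma adjusted p = 0.581) and the calcium-binding chaperone Calr at 0.43 (SE 0.13, adjusted p = 0.619). Of 20 immediate early genes, which neurons and other cells switch on within minutes of a stimulus, 4 were called for strain: Btg2 (range 2.43, highest in MRL/MpJ), Egr3 (2.11, AKR/J), Fosl2 (1.54, SJL/J) and Ier3 (1.12, SWR/J). None was called for the relation to Hspa1b, with 18 of 20 slopes positive and a median of 0.16; Jun had 0.34 (SE 0.09, adjusted p = 0.619). Of 12 clock and glucocorticoid response genes 3 were called for strain, Cdkn1a (2.27), Dbp (2.14) and Tsc22d3 (0.86), and the median slope was 0.00078.

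Between the sexes, with strain as a block, 4 member probe sets were called higher in males, 8 higher in females and 8 in neither direction. Of all probe sets 23.6% were called higher in males and 34% higher in females, 57.6% in all. With quantile normalization over all 50 arrays the member split was 5 and 6, and that of all probe sets 28.3% and 28.8%. Hspb1 had the widest gap, 0.60 higher in males (SE 0.06, limma adjusted p = 1.01e-09) and 0.57 on its second probe set, and was 0.66 and 0.63 after quantile normalization. Hspa1a was 0.47 lower in males (male minus female -0.47, adjusted p = 0.00383), Hspa5 -0.39 (1.03e-05), Dnajb1 -0.32 (0.000679) and Hsph1 -0.20 (0.00268). The 3 Hspa1b probe sets gave -0.18, 0.25 and -0.03, none called. After quantile normalization the second of these, 1427127_x_at, was called higher in males (0.31, limma adjusted p = 0.0439). For Hspa8 the probe sets were called in opposite directions, -0.14 (adjusted p = 0.000293) on the leading one and 0.14 (0.000274) on another. Second probe sets of Hsph1 (-0.03), Dnajb1 (0.08) and Hspa5 (-0.05) were not called, while the third Hspa5 probe set, 1447824_x_at, was called in the direction of the leading one (-0.31, adjusted p = 2.07e-05). The Hsp90aa1 probe sets gave -0.10 (adjusted p = 0.00447), -0.36 (1.05e-09) and -0.02 (0.689). Of the members with more than 1 tested probe set, only Hspb1 had all of them called in the same direction.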

How the data were processed

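The authors deposited 1 linear intensity for each probe set and array, which the submitters' processing notes trace to GCRMA and R 2.6.2; further settings are not given in the sources used here. The values were taken as log2(intensity + 1) after 64 control probe sets were left out. Strain and sex tests, comparisons of single strains (at least 1 log2 unit) and the slopes on Hspa1b used limma 3.58.1 in R 4.3.3 (lmFit, eBayes), with Benjamini-Hochberg adjustment over all probe sets tested and calls at an adjusted p under 0.05. The probe set with the highest mean stood for a gene. All tests were tried on simulated data. With 1 strain shifted by 1 log2 unit, the strain F test called 18% and the single-strain test 37%. At 3 units they called 97% and 99%, so a member that was not called may still differ between strains. Sex differences of 0.5 were called in 95%, and within-strain slopes of 0.5 on Hspa1b in 66%. Apart from the planted changes, the simulated probe sets did not differ by strain or sex. The adjustment depends on how many probe sets change, so these shares need not hold for the real data. There only 1 slope was called, and Dnajb1, with a slope of 0.49, was not. Named genes are the members, the genes most like them by Pearson's r (10 for the inducible mean, 3 for each other member) and up to 4 called genes of each list; Serpinh1, Creld2, Calr and Jun were given further values after they had been seen. The members and lists were chosen with earlier results of these data known. Other scales, normalizations, filters, covariates and reference genes were tried, and arrays or strains were left out. Promoters come from RefSeq (GRCm38.p6). The number of arrays, 2 for each strain, limits the precision.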

Additional observations from a re-analysis of the deposited data

How the results depend on the processing

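The Hspa1b strain call held under all 11 alternatives (adjusted p 0.0101 to 0.0447) and without each of the 50 arrays (0.00209 to 0.0315, limma). The Hspa1a call was lost without a filter on dim probe sets (0.106), without the sex term (0.241), without NON/LtJ (0.344) and without any 1 of 7 arrays (up to 0.148). Member probe sets called for strain numbered 3 without the filter, 2 without the sex term and 3 without NON/LtJ, and 3 to 8 when 1 array was left out (8 without either P/J array, 3 without either NON/LtJ array). All probe sets called were 2752 without the sex term and 4805 to 8304 when 1 array was left out (8304 without the male P/J array). When 1 array was left out, member calls for single strains ranged from 1 to 6, with 1 without either NON/LtJ array, and members called for sex from 11 to 13. Without the filter the latter were 14. With no replicate block, that is with strain left out of the sex test, the member count was 11. Hspb1 was called for strain with the Gapdh 3′ to 5′ signal as a covariate (0.028). Hspa8 and Hsp90aa1 lost the sex call of their leading probe sets with quantile normalization (0.0521 and 0.164). The Hspa1b probe set 1427127_x_at gained a sex call there (limma adjusted p = 0.0439).

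Probe sets called within strains for Hspa1b were 1 as reported, 2 with log2(value + 16) and with quantile normalization (Serpinh1 and Dnajb1 in both) and 4 with the Gapdh covariate (with Tdrkh and the second Serpinh1 probe set). They were 0 with array medians centred, without SM/J and PL/J, and with fibroblast or skeletal muscle markers as a covariate; Serpinh1 then had adjusted p-values of 0.0552, 0.074, 0.0777 and 0.186. They ranged from 0 to 2 when 1 strain was left out. With Dnajb1 as the reference gene there were 2 calls, and with Hsph1 11, none of them a member; between strains Hsph1 gave 461 calls, and Hspa1b 0 when any 1 strain was left out. The medians of r of inducible pairs ran from 0.40 to 0.46 over strain means and from 0.40 to 0.57 over differences in 6 other settings of scale, normalization and strains. These settings of r, the marker covariates and the fits without NON/LtJ were added after seeing the data.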
